A study of Mus musculus with 6 samples.

Results

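Of the 53801 genes in the deposited table of read counts from adult mouse brain, 9 were described here: Lyz1, Chil3, Ear2, Cd36, Marco, Fabp4, Atp6v0d2, Il18r1 and Krt79. They were found by gene name, each on a single row, as genes that alveolar macrophages or lung tissue are known to express. They were chosen with earlier results of these data known, so their shares beside all genes describe them and are not independent evidence. The 9 were compared between single libraries within and between genotypes. The libraries came from male C57BL/6 mice of about 70 weeks. The 3 Bahd1-WT mice were Bahd1+/+, and the 3 Bahd1-KO mice were Bahd1-/-, with the gene inactivated constitutively in every tissue and not in the brain alone. Polyadenylated RNA of a single sagittally cut hemisphere per mouse was sequenced, so each library held all cell types of that piece of tissue. In such bulk samples fewer cells of a type and less RNA per cell cannot be told apart.

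Alveolar macrophages live on the air side of the lung, where they clear surfactant, inhaled particles and dead cells. They take up this material through scavenger receptors, digest it in lysosomes acidified by the vacuolar ATPase, and handle the lipid with fatty acid transporters and binding proteins. Lysozyme and chitinase-like proteins are among the antimicrobial and immune products of the lung. Brain macrophages, which are microglia in the tissue and border-associated macrophages around vessels and in the meninges, share some of these genes and lack others.

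The label alveolar macrophage could not be judged from all 9 genes. Marco, a scavenger receptor that alveolar macrophages in mouse express, had at most 8 counts in any library. Krt79 had at most 5, and counts this low cannot show whether either gene followed the others. The 6 genes Lyz1, Chil3, Cd36, Atp6v0d2, Il18r1 and Ear2 shared a pattern over the libraries, led by Bahd1-WT replicate 1, while Fabp4, Marco and Krt79 did not reach the same size of difference.

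The depth was 42297150 to 93557948 counts per library, and 3 counts, taken as the smallest level that the depth can show, came to 0.0315 to 0.069 CPM (counts scaled to TMM-normalized library sizes). Bahd1 itself had 844 to 1383 counts in the Bahd1-WT libraries and 0 to 14 in the Bahd1-KO libraries, in keeping with each label. All 9 genes passed the filter of at least 10 counts summed over the 6 libraries, as did 23975 genes in all. Krt79 and Marco passed with sums of few counts in either genotype, and intervals given below cover counting error only.

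Lyz1, Chil3 and Ear2 have near copies in the genome, so the stretches that tell them apart are shown first. Lyz1 (chr10:117287797-117292868, minus strand, GRCm38) encodes the lysozyme of Paneth cells, and its relative Lyz2 encodes the lysozyme of macrophages. Over 447 aligned bases of their longest reading frames, 425 (95.1%) were identical. The 65 bases with the most differences, counted from base 62 of the Lyz1 frame, held 11 of them, shown in capitals in the transcripts of GENCODE M21.
Lyz1: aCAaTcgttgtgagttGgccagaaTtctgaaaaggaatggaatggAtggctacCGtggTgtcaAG
Lyz2: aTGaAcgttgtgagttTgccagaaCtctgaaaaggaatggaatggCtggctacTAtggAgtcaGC
Of the stretches of 65 bases that Lyz1 transcripts hold, 8.59% also occurred in Lyz2, and with 50 bases 16.1% did. Reads from these stretches cannot be assigned to either gene by sequence. Lyz2 is the more abundant in this tissue, with 539 to 1254 counts in each Bahd1-KO library, beside 0 to 2 counts of Lyz1 in the same libraries.

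By RT-qPCR the study reported less Lyz1 in Bahd1-KO than in Bahd1-WT brains. The RT-qPCR primers that it designed for Lyz1 were set against both transcripts in the same way. Whether they also amplify Lyz2 was not tested. The forward primer matched Lyz1 and Lyz2 with 0 mismatches. The reverse primer matched Lyz1 with 0 mismatches and the same place in Lyz2 with 3, which stand in capitals in the Lyz2 line.
Lyz1 and Lyz2 forward: aatgtgcaaagagggtggtga
Lyz1 reverse: gggaaagcgaggaagtgtgac
Lyz2 at the reverse primer: gggaaaTcgaggGaAtgtgac

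Chil3 (chr3:106147554-106167564, minus strand), a secreted chitinase-like lectin also called Ym1, was 95.3% identical to Chil4 over the reading frame. Their most different 65 bases, from base 495 of the Chil3 frame, held 10 differences.
Chil3: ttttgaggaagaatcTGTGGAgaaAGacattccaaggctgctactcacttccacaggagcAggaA
Chil4: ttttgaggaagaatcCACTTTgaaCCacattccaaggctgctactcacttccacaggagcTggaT
Ear2 (chr14:44102654-44103534, plus strand), a ribonuclease of the eosinophil-associated family, was 97% identical to Ear10. From base 267 of the Ear2 frame, 65 bases held 5 differences.
Ear2: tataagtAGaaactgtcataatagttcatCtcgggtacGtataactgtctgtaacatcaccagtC
Ear10: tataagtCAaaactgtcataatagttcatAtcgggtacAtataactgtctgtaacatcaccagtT
Stretches of 65 bases shared with any other gene made up 19.9% of Chil3 and 29.2% of Ear2. Chil4 had a single count in the 6 libraries together and Ear10 had 0, so the counts on Chil3 and Ear2 are the larger part of each pair, while reads from shared stretches stay uncertain. None of the 65-base stretches of Cd36, Marco, Fabp4, Atp6v0d2, Il18r1 and Krt79 occurred in another gene.

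Among the secreted host-defense products, Lyz1 and Chil3 both differed widely between libraries. In the Bahd1-WT mice (replicates 1, 2 and 3 in this order here and below) Lyz1 had 293, 52 and 11 counts, and in the Bahd1-KO mice 0, 2 and 2 counts, which is 3.2, 0.842 and 0.15 CPM against 0, 0.021 and 0.0345 CPM. All 3 Bahd1-WT libraries lay above all 3 Bahd1-KO libraries, but replicate 1 held most of the counts. Its level was 21.3 times that of replicate 3 (95% exact counting interval 11.8 to 43.2) and 3.8 times that of replicate 2 (2.82 to 5.21). Replicate 3, the lowest of its genotype, was still 7.37 times the level of the Bahd1-KO libraries summed (2.18 to 31.8).

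Chil3 had 353, 91 and 12 counts in the Bahd1-WT libraries and 11, 10 and 24 in the Bahd1-KO libraries. On the CPM scale this was 3.86, 1.47 and 0.164 against 0.253, 0.105 and 0.415, so the genotypes overlapped, with Bahd1-WT replicate 3 below 2 of the Bahd1-KO libraries. Replicate 1 was 23.6 times replicate 3 (13.3 to 46.1), and replicate 3 was 0.715 times the Bahd1-KO libraries summed (0.344 to 1.37).

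Ear2 was a low gene, at 30, 11 and 3 counts in Bahd1-WT and 7, 2 and 0 in Bahd1-KO. The second Bahd1-WT library (0.178 CPM) and the first Bahd1-KO library (0.161 CPM) were close, and Bahd1-WT replicate 3 (0.0409 CPM) lay inside the range of Bahd1-KO. The ratio of replicate 1 to replicate 3 was 8.01 with a wide interval (2.49 to 41), since it rests on 3 counts.

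**Figure D1:**
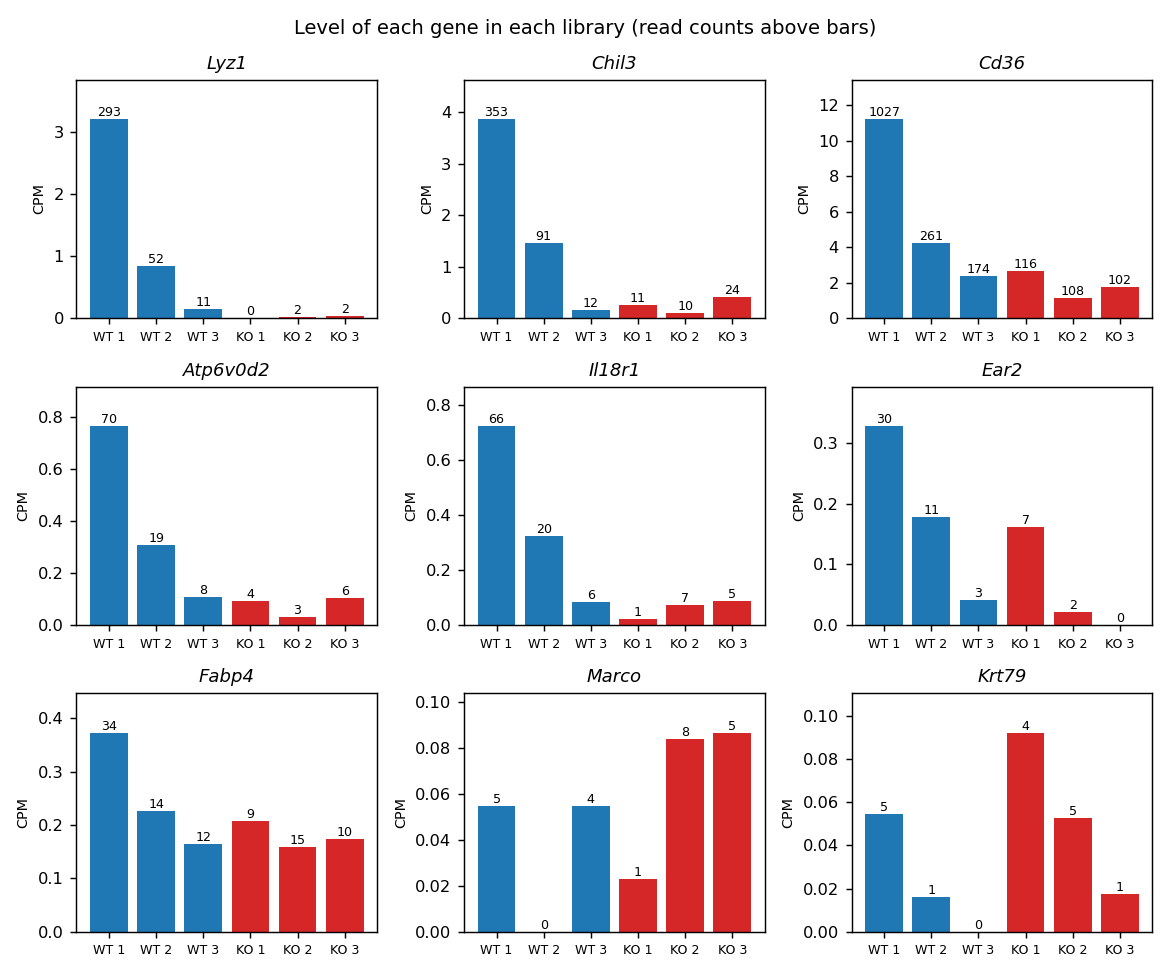
Bars give the normalized level in CPM (vertical axis, starting at 0, with its own scale in each panel) of each of the 9 genes in the 3 Bahd1-WT libraries (blue) and the 3 Bahd1-KO libraries (red), 1 mouse each, with read counts above the bars. Bahd1-WT replicate 1 is the highest library for 7 of the 9 genes, and Marco and Krt79 stay at or under 8 counts everywhere.

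Among the genes of uptake and lipid handling, Cd36 (chr5:17781690-17888801, minus strand), a class B scavenger receptor that also imports long-chain fatty acids, was the most abundant of the 9. Bahd1-WT replicates 1, 2 and 3 had 1027, 261 and 174 counts, or 11.2, 4.23 and 2.37 CPM. Bahd1-KO replicates 1, 2 and 3 had 116, 108 and 102 counts, or 2.67, 1.13 and 1.76 CPM. Bahd1-WT replicate 3 lay below Bahd1-KO replicate 1, and replicate 1 was 4.73 times replicate 3 (4.02 to 5.59). Unlike Lyz1, Cd36 had a clear level in every library, and Bahd1-WT replicate 3 was 1.43 times the Bahd1-KO libraries summed (1.18 to 1.73).

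Marco (chr1:120474538-120505024, minus strand), a class A scavenger receptor that binds bacteria and particles, had 5, 0 and 4 counts in Bahd1-WT and 1, 8 and 5 in Bahd1-KO. The genotypes overlapped, and Bahd1-WT replicate 1 was equal to replicate 3 on the CPM scale (ratio 1, interval 0.216 to 5.05). The ratios of Lyz1 and Chil3 lie outside that interval, while those of Cd36 (4.73) and Fabp4 (2.27) lie inside it, so at this depth Marco cannot be told apart from these. Msr1, another class A scavenger receptor, had 47, 28 and 37 counts in Bahd1-WT and 17, 15 and 19 in Bahd1-KO, with Bahd1-WT replicate 1 at 1.02 times replicate 3 (0.648 to 1.61).

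Fabp4 (chr3:10204088-10208576, minus strand), a cytosolic fatty acid binding protein of adipocytes, macrophages and capillary endothelium, had 34, 14 and 12 counts in Bahd1-WT and 9, 15 and 10 in Bahd1-KO. Replicate 1 was again the highest library, at 2.27 times replicate 3 (1.15 to 4.82), and the other 5 libraries lay between 0.158 and 0.227 CPM. Its relative Fabp5 did not have this order, with replicate 1 at 0.874 times replicate 3 (0.831 to 0.919). Fabp1, a liver and alveolar macrophage member of the family, had 3, 2 and 0 counts in Bahd1-WT and 0 in each Bahd1-KO library.

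Around Cd36, lipoprotein lipase and its anchor on capillary endothelium were looked at as partners in fatty acid uptake. Gpihbp1, the anchor, had 36, 2 and 2 counts in Bahd1-WT and 3, 4 and 1 in Bahd1-KO, high in replicate 1 alone. Lpl had 3095, 2437 and 2359 counts in Bahd1-WT and 1109, 1283 and 1436 in Bahd1-KO, with replicate 1 at 1.05 times replicate 3 (0.996 to 1.11).

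Atp6v0d2 (chr4:19876841-19922605, minus strand) encodes the d2 form of a membrane subunit of the proton pump that acidifies lysosomes, a form typical of osteoclasts and macrophages. It had 70, 19 and 8 counts in Bahd1-WT, or 0.765, 0.308 and 0.109 CPM, and 4, 3 and 6 counts in Bahd1-KO, or 0.0919, 0.0315 and 0.104 CPM. The genotypes did not overlap, although Bahd1-WT replicate 3 and Bahd1-KO replicate 3 were a few counts apart. Replicate 1 was 7.01 times replicate 3 (3.37 to 16.9). Atp6v0d1, the d form that most cells use, had at least 7290 counts in each library, and its level in replicate 1 was 0.819 times that in replicate 3 (0.798 to 0.841).

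Il18r1 (chr1:40465552-40500854, plus strand) encodes the chain of the interleukin-18 receptor that binds the cytokine. Its counts were 66, 20 and 6 in Bahd1-WT and 1, 7 and 5 in Bahd1-KO. Bahd1-WT replicate 3 (0.0818 CPM) lay just below Bahd1-KO replicate 3 (0.0864 CPM), and replicate 1 was 8.82 times replicate 3 (3.84 to 24.9). The partner chain Il18rap did not share this order: it had 36, 15 and 27 counts in Bahd1-WT and 5, 13 and 6 in Bahd1-KO, with replicate 1 at 1.07 times replicate 3 (0.631 to 1.83). The ligand Il18 had 2503, 1825 and 1811 counts in Bahd1-WT and 1298, 1623 and 982 in Bahd1-KO.

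Krt79 (chr15:101929332-101940324, minus strand), a type II keratin known from hair follicle and sebaceous duct epithelium, had 5, 1 and 0 counts in Bahd1-WT and 4, 5 and 1 in Bahd1-KO. These levels lie at or near the floor of 3 counts, and the genotypes overlapped. Krt77 had 545, 310 and 406 counts in Bahd1-WT and 264, 579 and 395 in Bahd1-KO, and Krt78 had 0 in each Bahd1-WT library and 1 to 3 in the Bahd1-KO libraries.

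Per kilobase of all annotated exons joined, the order in Bahd1-WT replicate 1 was Cd36 (3.13 CPM per kb), Lyz1 (2.54), Chil3 (2.36), Ear2 (0.456), Atp6v0d2 (0.282), Il18r1 (0.15), Fabp4 (0.0828), Marco (0.0284) and Krt79 (0.0115). For Fabp4 this length is 4489 bases, the whole span of the gene. For Krt79 it is 4753 bases, while its longest transcript holds 2402 stretches of 50 bases. Their levels per kilobase are thus held down, and their places in the order are uncertain. In Bahd1-KO replicate 2, the most deeply sequenced library of its genotype, Cd36 was again first (0.316 CPM per kb), and Lyz1 (0.0166) lay below Marco (0.0436). The summed level of the 9 genes was 20.6, 7.6 and 3.14 CPM in Bahd1-WT replicates 1, 2 and 3 and 3.52, 1.68 and 2.68 CPM in Bahd1-KO replicates 1, 2 and 3. By this sum Bahd1-WT replicate 3 lay inside the range of Bahd1-KO.

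Bahd1-WT replicate 1 was at least 4-fold above replicate 3 on the scale of log2(CPM + 0.05) in 6 of the 9 genes, against 0.53% of all genes tested, and in 3 of the 9 when 0.5 CPM was added in place of 0.05. Replicate 2 was at least 4-fold above replicate 3 for Lyz1 and Chil3, 2 of the 9, against 0.213% of all genes tested. Replicate 1 reached 4-fold over replicate 2 in 0 of the 9 (0.375% of all genes), and replicate 3 reached 4-fold over the median Bahd1-KO library in 0 of the 9 (0.113% of all genes). The added 0.05 CPM holds down ratios against levels near 0, such as that of Lyz1 to Bahd1-KO given above without it. These are ratios of 1 library to another, with no replicate check. Replicate 1 was the highest of the 6 libraries in 7 of the 9 genes, against 13.6% of all genes, and replicate 3 lay within the range of the Bahd1-KO libraries in 6 of the 9, against 36.3%.

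**Figure D2:**
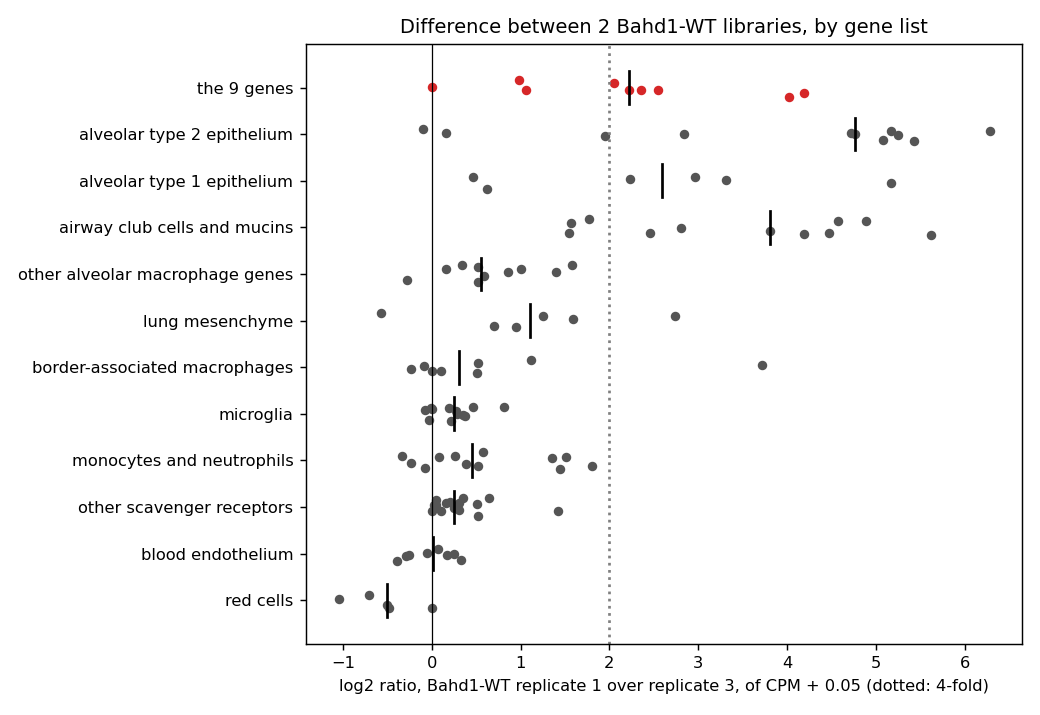
Each point is a gene that passed the filter, the horizontal axis gives the log2 ratio of Bahd1-WT replicate 1 to replicate 3 after adding 0.05 CPM, each row is a list of genes, black ticks mark the median of a list and the dotted line marks 4-fold. The 9 genes (red) spread from 0 to beyond 4 on this log2 scale, as lung epithelial lists do, while on this scale 0 of the 10 other alveolar macrophage genes and 0 of the 12 microglia genes pass the line.

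Lists of marker genes were read in the same 2 libraries to see which cell types had the pattern. Of the genes of alveolar type 2 epithelium, the cells that make surfactant, 8 of 11 tested were at least 4-fold higher in replicate 1 than in replicate 3. So were 4 of 6 genes of alveolar type 1 epithelium and 8 of 11 genes of airway club cells and mucins. Sftpa1, a surfactant protein, had 1908, 271 and 16 counts in Bahd1-WT and 0, 1 and 1 in Bahd1-KO, and Scgb1a1, the club cell secretoglobin, had 4448, 922 and 69 counts in Bahd1-WT and 5, 1 and 4 in Bahd1-KO. The summed level of the club cell list was 77.7, 22.2 and 3.61 CPM in Bahd1-WT replicates 1, 2 and 3 and 2.48 to 3.14 CPM in the Bahd1-KO libraries.

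Of 15 other genes known from alveolar macrophages 14 were in the table and 10 were tested, and 0 of these were at least 4-fold higher in replicate 1 than in replicate 3 on the scale of log2(CPM + 0.05). This scale holds down the ratio of low genes, and with no such addition 2 of the 10 passed 4-fold, Krt19 (24 against 4 counts, CPM ratio 4.81) and Cidec (6 against 1 count, CPM ratio 4.81), while the other 8 lay between 0.825 and 2.87. Replicate 1 was the highest of the 6 libraries in 6 of the 10. Car4, Slc7a2, Mrc1 and Pparg had at least 143 counts in every library of both genotypes. A small added part from lung could go unseen in the ratios of such genes, so the 0 of 10 does not show that it is absent. Siglecf, the sialic acid lectin used to gate these cells, is listed in the table under the name Siglec5, and had 61, 39 and 33 counts in Bahd1-WT and 16, 49 and 32 in Bahd1-KO, so the genotypes overlapped. Pparg, the regulator of their lipid program, had 304, 171 and 192 counts in Bahd1-WT and 175, 319 and 143 in Bahd1-KO. Car4, a carbonic anhydrase, was higher on average in Bahd1-KO, at 48.2 ± 12 CPM against 30.9 ± 6.5 CPM in Bahd1-WT (SD, n = 3). Plet1, an alveolar macrophage surface protein, had 93, 30 and 26 counts in Bahd1-WT and 15, 51 and 9 in Bahd1-KO. In 2 of the 10 the genotypes did not overlap, with Bahd1-KO lower, which is near the share of 19.3% of all genes. Cd200r4 had 38, 27 and 19 counts against 9, 15 and 7 (log2 fold change -1.21, SE 0.38, edgeR adjusted p = 0.0792), and Slc7a2, an amino acid transporter, was at 58.4, 52.7 and 52.2 CPM against 39.7, 27.6 and 48.5 CPM (-0.5, SE 0.22, edgeR adjusted p = 0.154).

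Lung mesenchyme had 1 of 6 genes past 4-fold, and replicate 1 was the highest library in 5 of the 6. Of 12 microglia genes 0 were 4-fold higher in replicate 1 than in replicate 3, and their summed level was 443, 368 and 408 CPM in Bahd1-WT and 402 to 421 CPM in Bahd1-KO. The counts past 4-fold were also 0 of 12 for monocytes and neutrophils, 0 of 15 for other scavenger receptors, 0 of 8 for blood endothelium and 0 of 5 for red cells. It was 1 of 8 for border-associated macrophages (Cbr2, a carbonyl reductase that club cells also express, at 481, 57 and 26 counts in Bahd1-WT and 25, 131 and 33 in Bahd1-KO). Eosinophils, with 0 of 4 tested genes, adipocytes with 0 of 5, T and NK cells with 0 of 8 and epidermis with 0 of 7 had none. These counts, and those of the lung epithelial lists, are on the scale of log2(CPM + 0.05). Without that addition some low genes of these lists passed 4-fold too, such as Ltf (0.459 against 0.0954 CPM) and Olr1 (0.12 against 0.0136 CPM). Klrb1c had 10 counts against 0.

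The relatives of the 9 genes were read as families. Past 4-fold between replicates 1 and 3 were 0 of 3 lysozyme relatives tested, 0 of 6 chitinase genes, 0 of 4 pancreatic-type ribonucleases, 0 of 3 fatty acid binding proteins, 0 of 11 V-ATPase V0 genes, 0 of 11 genes of the IL-18 and IL-1 receptor family, 1 of 7 type II keratins and 1 of 10 fatty acid handling genes. Lyz2 stayed under 4-fold, at 3416, 1333 and 964 counts in Bahd1-WT and 539, 1254 and 877 in Bahd1-KO, and replicate 1 at 2.84 times replicate 3 (2.64 to 3.05).

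To set the genes on a common scale, the level above the Bahd1-KO libraries summed was expressed in Bahd1-WT replicates 2 and 3 as a percent of that in replicate 1. In replicate 2 this excess was 25.8% ± 4 (counting SE) for Lyz1, 26.9% ± 3.1 for Cd36, 34.3% ± 4.8 for Chil3, 34.6% ± 11 for Atp6v0d2, 39.4% ± 13 for Il18r1 and 46.9% ± 22 for Ear2. The epithelial genes spread from 12.7% ± 1.1 for Sftpc and 21% ± 1.4 for Sftpa1 to 22.6% ± 2.4 for Cxcl15 and 30.6% ± 1.1 for Scgb1a1. The values of Lyz1 and Cd36 thus lay between those of Cxcl15 and Scgb1a1, and those of the other 4 were higher with larger errors. Lyz2 was at 33.7% ± 2.9. The epithelial genes differed from each other by more than their counting errors, so no single percent described the lung genes of replicate 2.

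In replicate 3 the excess was 4.08% ± 1.5 for Lyz1, 7.47% ± 2.1 for Cd36, 6.15% ± 6.2 for Atp6v0d2, 2.4% ± 5.8 for Il18r1, -1.8% ± 1.6 for Chil3 and -1.72% ± 10 for Ear2. It was between -0.206% ± 0.53 for Sftpc and 1.83% ± 0.24 for Scgb1a1 among the epithelial genes. These errors leave out the spread between mice, and for Cd36 replicate 3 (2.37 CPM) lay inside the range of the Bahd1-KO mice (1.13 to 2.67 CPM). Fabp4 had too few counts for this scale (27.1% ± 35 in replicate 2).

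**Figure D3:**
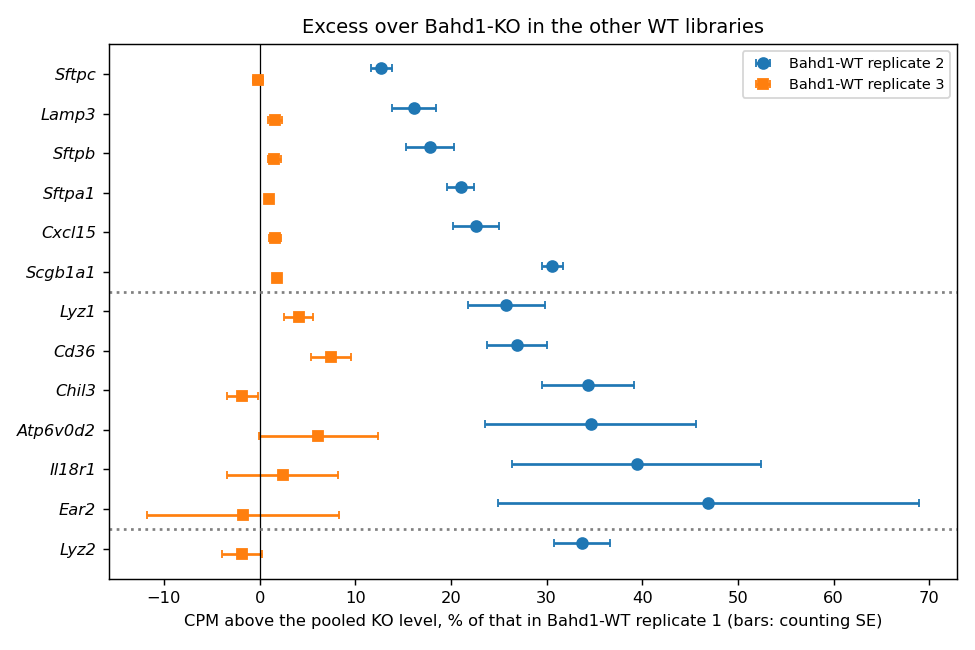
The horizontal axis gives the CPM above the Bahd1-KO libraries summed in Bahd1-WT replicate 2 (blue circles) and replicate 3 (orange squares) as a percent of that in Bahd1-WT replicate 1, with bars of 1 counting SE, for 6 lung epithelial genes (top), 6 of the 9 genes (middle) and Lyz2 (bottom). In replicate 2 the epithelial genes run from 12.7% to 30.6% and the 6 genes from 25.8% to 46.9%, and in replicate 3 all 13 lie between -1.83% (Lyz2) and 7.47% (Cd36).

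By Pearson correlation of log2(CPM + 0.05) over the 6 libraries, the gene most like Lyz1 among 17706 candidates was Sftpa1 (r = 0.996), followed by Gm15510 (0.991) and Sftpb (0.989). For Il18r1 it was Cldn18, a claudin of alveolar type 1 epithelium (0.995), then Gm37780 (0.99) and Lca5l (0.987). The genes nearest to the others were on none of the marker lists: Ccdc150, Naip5 and Gm43029 for Chil3, Gm45867, A830036E02Rik and Syde2 for Cd36, G630018N14Rik, Col11a1 and Glb1l2 for Atp6v0d2, Gm10643, Pcdhb11 and 3110006O06Rik for Ear2, and Gm4956, 4930556M19Rik and Tgfbr2 for Fabp4, with r of 0.978 to 0.994. Wdr66 stood nearest to Marco (0.997) and Ccsap to Krt79 (0.991), each a member of few counts. With Sftpa1 itself the r was 0.912 for Chil3, 0.905 for Cd36, 0.949 for Atp6v0d2, 0.966 for Il18r1, 0.752 for Ear2, 0.848 for Fabp4, -0.115 for Krt79 and -0.394 for Marco. These 6 points share the high level of 1 library, and each of the 9 genes had some candidate with an r of at least 0.98, so the values only describe likeness.

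Between the genotypes, 7 of the 9 genes were lower in Bahd1-KO and 2, Marco and Krt79, were higher. Of the 7, 6 were at least 2-fold lower, against 7.19% of all genes. The median log2 fold change of the 9 was -1.85, against -0.06 over all genes tested. In edgeR's quasi-likelihood test with Benjamini-Hochberg adjustment over all genes, 0 of the 9 were differentially expressed genes (adjusted p-value under 0.05 and at least 2-fold), against 0.00417% of all genes called lower. With an unadjusted p under 0.05, 5 were lower, Lyz1, Chil3, Cd36, Atp6v0d2 and Il18r1, against 12% of all genes. When DESeq2 was run with its normal prior, 4 of the 9 were called lower, Lyz1, Cd36, Atp6v0d2 and Il18r1, against 0.909% of all genes, and the same 4 were called without the prior, against 1.06%. These 4 are also in the list of lowered genes drawn from these same samples, so their calls are not independent evidence of a direction.

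Lyz1 was at 1.4 ± 1.6 CPM in Bahd1-WT and 0.0185 ± 0.017 CPM in Bahd1-KO (SD, n = 3), with a log2 fold change of -6.01 (SE 1.26, adjusted p = 0.0634 in edgeR's quasi-likelihood test). The SD of the Bahd1-WT libraries was larger than their mean. The summed counts of 356 and 4 give a ratio of 77.2 (counting interval 29.9 to 285).

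For Cd36 the means were 5.94 ± 4.7 and 1.85 ± 0.77 CPM, and the log2 fold change was -1.69 (SE 0.56, edgeR adjusted p = 0.0892). Cd36 has a GC content of 38.4%, and the 476 expressed genes within 1% of it had a median log2 fold change of -0.58. With an offset per library for GC content and length, Cd36 was at -1.19 (adjusted p = 0.197 in edgeR, within a range of 0.00858 to 0.285 over its 17 alternatives).

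Il18r1 and Atp6v0d2 gave log2 fold changes of -2.53 (SE 0.79) and -2.49 (SE 0.77), with edgeR adjusted p-values of 0.0788 and 0.0781. Chil3 was at -2.88 (SE 0.96, edgeR adjusted p = 0.0906) and Ear2 at -1.85 (SE 1.05, edgeR adjusted p = 0.249). The other 3 missed the threshold by more, with -0.54 (SE 0.41) for Fabp4, 0.8 (SE 0.86) for Marco and 0.97 (SE 1) for Krt79. The offset brought Fabp4 to -0.12 and Marco to 0.1. All 3 Bahd1-KO libraries lay below all 3 Bahd1-WT libraries in 2 of the 9 genes, Lyz1 and Atp6v0d2, against 19.3% of all genes.

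The size of these differences moved with Bahd1-WT replicate 1. Without that library the log2 fold change was -4.48 for Lyz1, -1.7 for Chil3, -0.84 for Cd36, -1.52 for Atp6v0d2, -1.6 for Il18r1, -1.05 for Ear2 and -0.14 for Fabp4. Marco was at 1.19 and Krt79 at 2.52. There 1 of the 9, Lyz1, had an unadjusted p under 0.05 in edgeR, against 5.97% of all genes. In that fit 0 of all genes tested were called, so the count of 0 among the 9 carries no information about them. Without Bahd1-KO replicate 1, the least deeply sequenced library, 3 of the 9 were called lower, Lyz1, Cd36 and Ear2, against 2.23% of all genes, and Ear2 was at -3.67. With library totals in place of TMM factors 1 of the 9 was called, Lyz1, against 0.492% of all genes called lower, and with every gene of at least 1 count tested 5 were, against 0.863%. The summed club cell and mucin level given above was also highest in Bahd1-WT replicate 1. The summed alveolar type 2 level was 157, 70.5 and 72.4 CPM in Bahd1-WT and 79.6, 113 and 103 CPM in Bahd1-KO, so Bahd1-WT replicates 2 and 3 lay below all 3 Bahd1-KO libraries; Abca3 and Lpcat1, the 2 of its 11 genes that were higher in Bahd1-KO, have 1540 to 7343 counts in each library and weigh most in this sum. The part of lung epithelial RNA in the differences between genotypes was not tested.

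**Figure D4:**
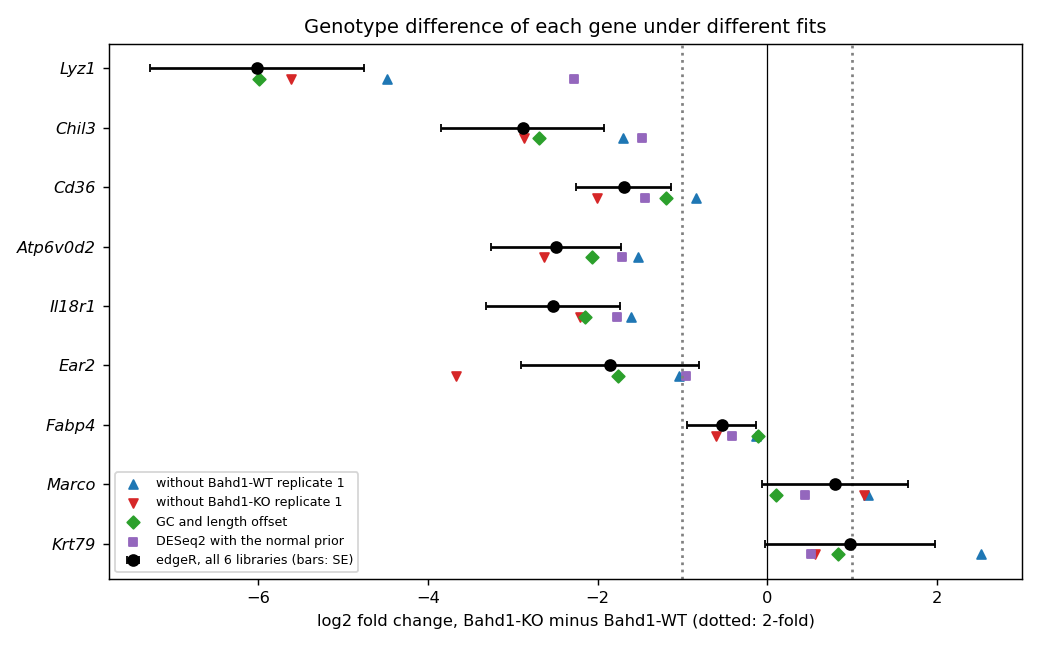
The horizontal axis gives the log2 fold change, Bahd1-KO minus Bahd1-WT, of each of the 9 genes, as black points with bars of 1 SE for edgeR with all 6 libraries, and as colored symbols for the fits without Bahd1-WT replicate 1, without Bahd1-KO replicate 1, with the GC and length offset, and for DESeq2 with the normal prior, with dotted lines at 2-fold. Every fit shown has Lyz1 to Ear2 and Fabp4 below 0 and Marco and Krt79 above 0, and for Lyz1 the values run from -6.01 in edgeR to -2.28 in DESeq2 with the prior.

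The same lists were also read between genotypes. In Bahd1-KO 9 of 11 alveolar type 2 genes were lower (median log2 fold change -5.38), as were 11 of 11 club cell and mucin genes (-3.05) and 5 of 6 alveolar type 1 genes (-0.96). Of the other alveolar macrophage genes 7 of 10 were lower, with a median of -0.38, and of the other scavenger receptors 9 of 15, with a median of -0.45. An offset per library for GC content and length moved the median of the alveolar type 1 genes to -1.51 and that of the scavenger receptors to -0.2. Microglia genes had a median of 0.4, whose sign changed (-0.03) under that offset. In edgeR 0 of these genes were called, and with an unadjusted p under 0.05 there were 7 type 2, 8 club cell, 2 type 1, 2 alveolar macrophage and 3 scavenger receptor genes lower, against 12% of all genes. In the other direction there were 1 type 2, 1 alveolar macrophage, 2 scavenger receptor and 5 microglia genes, against 4760 of the 23975 genes tested. With DESeq2 and the prior 5 type 2, 5 club cell and 1 type 1 genes were called lower, against 0 of the alveolar macrophage list and 0 of the scavenger receptors. Calls were not limited to lung lists: 2 genes of monocytes and neutrophils were called lower, 1 of T and NK cells and 1 of the IL-18 and IL-1 receptor family, which share genes. Called higher were 4 of 5 red cell genes, 2 genes in each of 2 further lists (V-ATPase V0 subunits and fatty acid handling) and 1 gene in each of 8 others, microglia and the other scavenger receptors among them, against 9.61% of all genes. The summed red cell level was 15.1, 92.6 and 30.3 CPM in Bahd1-KO replicates 1, 2 and 3, against 10.8 to 15.9 CPM in Bahd1-WT. Bahd1-KO replicate 1 thus lay inside the range of Bahd1-WT.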

How the data were processed

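RNA-seq read counts per gene came from a hemisphere of 3 Bahd1-WT and 3 Bahd1-KO mice, grouped by their labels. The authors deposited raw counts per gene, without normalization, that they made by trimming reads with cutadapt 1.11, aligning them to GRCm38 and counting exonic reads with featureCounts 1.4.6-p3. The submitters' processing notes name STAR 2.5.0a, while the supplementary methods name STAR and Tophat2 and the methods and supplement differ in sequencer and read layout, so both 50 and 65 bases were tried for shared stretches. The featureCounts parameters in the supplement name no option for counting reads that match several places, which the program leaves out by default. The table held 0 columns of other samples.

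Genes whose 6 counts summed to 10 or more (23975 of 53801) were tested with edgeR 4.0.16 (TMM, quasi-likelihood, genotype only, R 4.3.3), with p-values adjusted over all of them by the method of Benjamini and Hochberg. A gene was called at an adjusted p under 0.05 where log2 fold changes were 1 or larger in size. DESeq2 1.42.0 with and without the normal prior was an alternative, as were other scalings and filters, each sample left out, the replicate block, and a GC and length offset (splines with 5 and 3 degrees of freedom). Intervals for ratios of libraries were exact conditional binomial intervals at 95%. The excess over Bahd1-KO used the 3 Bahd1-KO libraries summed, with Poisson errors. Depth, 42297150 to 93557948 counts, sets a floor of 3 counts. Scripts were tested on simulated data. Positions, exon lengths and transcripts were those of GENCODE M21 (GRCm38).

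The members and marker lists were chosen with earlier results of these data known. The genes named were all 9, their nearest relatives or partners, lung epithelial references, up to 4 genes a list (the 2 highest in mean CPM and the 2 with the largest fold change) and the 3 genes most correlated with each member that had at least 30 counts in some library. Siglecf, Pparg, Krt19, Cidec and Ltf were named in addition, after their values were seen. Each mouse gave 1 library. Permutation over 3 against 3 samples cannot give a p below 0.1, so none is given.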

Additional observations from a re-analysis of the deposited data

How the results depend on the processing

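All 7 genes lower in Bahd1-KO stayed lower, and Marco and Krt79 stayed higher, in every one of the 15 to 17 alternative fits that held the gene. The number called among the 9, which was 0, was 1 with total counts (Lyz1), 4 with DESeq2 with the prior and 4 without it, 5 with no filter beyond 1 count, and 0 to 3 with a library left out. Over all genes, 2 were called, against 2007 with total counts, 2761 with DESeq2 without the prior, 2522 with it, 2770 with no filter beyond 1 count, 4 with the GC and length offset, and 0 to 3993 with a library left out, highest without Bahd1-KO replicate 1. With CPM + 0.5 in place of CPM + 0.05, 3 of the 9 were at least 4-fold higher in Bahd1-WT replicate 1 than in replicate 3. The cause of these differences was not tested.

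The replicate numbers did not pair the samples: deviations of same-numbered libraries correlated at -0.645, -0.655 and -0.144. With the replicate block 7 genes were called in all and 9 with the block and the offset, and 0 of the 9 in either. Genes of the 9 that were lower at an unadjusted p under 0.05 in edgeR went from 5 to 6 with the block, with Ear2 added. The share of all genes at that level with the block is not given, so the rise cannot be read as a result about the 9. The block was not run with DESeq2 or the other scalings and filters. Depth limits Marco and Krt79, whose counts lie near the floor of 3.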

Other observations

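A few lung or epithelial genes, chosen after their values were seen, were highest in Bahd1-WT replicate 1 and lower in Bahd1-KO replicate 1 than in the other Bahd1-KO libraries. Sftpc was at 25.8, 4.11 and 0.9 CPM in Bahd1-WT, by replicate number, and at 0.322, 1.34 and 0.777 CPM in Bahd1-KO. Ager, a receptor of alveolar type 1 cells, was at 2.21, 0.292 and 0.177 CPM in Bahd1-WT and at 0.0919, 0.431 and 0.466 CPM in Bahd1-KO. Krt19, a keratin of simple epithelium, was at 0.262, 0.0324 and 0.0545 CPM in Bahd1-WT and at 0.046, 0.147 and 0.104 CPM in Bahd1-KO, on 2 to 24 counts. These genes have GC contents of 54.8% (Sftpc), 59.4% (Ager) and 57.6% (Krt19). Cldn5, a gene of blood endothelium with 60.5% GC, had the same order in Bahd1-KO, at 5.52, 30 and 7.84 CPM. Bahd1-KO replicate 1 was instead the highest Bahd1-KO library for Cxcl15 (0.069, 0.021 and 0.0173 CPM) and Scgb1a1 (0.115, 0.0105 and 0.0691 CPM), on 1 to 5 counts. The part of GC content in this order was not tested. In Bahd1-KO replicate 2, Sftpa1 and Scgb1a1 had 1 count each and Lyz1 had 2, all under the floor of 3 counts. Hba-a1, a hemoglobin gene, was at 17.2 CPM there and 0.308 to 3.07 CPM in the other 5 libraries.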
